A study of Rattus norvegicus with 16 samples.

Results

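The genes described here are 50 genes of mitosis and the G2/M transition in cultured rat satellite cells, the stem cells of skeletal muscle. They were taken from a list of symbols that was chosen with earlier results of these data known. A probe set belonged to them where the platform annotation gave it exactly 1 of these symbols. Its mean signal over the 13 arrays kept by the authors also had to be at least 300. On the array, 43 of the 50 genes had a probe set of their own, 61 in all, and 57 probe sets of 41 genes reached that minimum, of 20904 probe sets of 11286 genes that did so among 31042. Cdc25c, Nek2, Ndc80, Kif4a, Tpx2, Anln and Ncapg are without one in that annotation.

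The cells came from the levator ani, a pelvic muscle that responds to androgens, and were used at passage 5. Each sample was 1 Affymetrix rat array. NARA, a nonsteroidal agonist of the androgen receptor, was given at 10 nM for 48 h (4 arrays) or for 4 h (4 arrays, 2 of them kept), and vehicle, 0.2% DMSO, for 48 h (4 arrays, 3 kept) or for 4 h (4 arrays). All 4 groups were treated in medium whose fetal bovine serum had been replaced with serum stripped by charcoal, which removes steroids, so culture in stripped serum is shared by NARA and vehicle. The strain, sex and age of the animals are not given in the sources used here. Samples are titled as numbered biological replicates, but no label says whether they came from different animals or dishes, so p-values here reflect only how these samples vary, which could be technical variation.

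Commitment to mitosis depends on cyclin-dependent kinase Cdk1 and its cyclin partners, which drive chromosome condensation and spindle assembly. The spindle checkpoint then holds the anaphase-promoting complex back until each kinetochore is attached, and that complex afterwards destroys the cyclins and the securin Pttg1. Transcripts of these genes peak together late in the cell cycle and are low in resting cells. In skeletal muscle, satellite cells divide as myoblasts and leave the cell cycle when they differentiate.

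The transcripts of many late cell cycle genes are known to depend on a promoter element called the cell cycle genes homology region (CHR) and on boxes bound by the factor NF-Y. The letters TTTGAA or TTCGAA, as in the CHR, and CCAAT, as in the NF-Y box, were therefore looked up on both strands in RefSeq promoter windows of the GRCr8 build, which run from 250 bases before to 50 bases after the start given there. Of the 41 tested genes, 35 had a window. CHR-type letters stood in 25 of the 35 (71.4%), against 13.4% of 9368 windows of all tested genes, and within 50 bases of the start in 18 (51.4%), against 3.4%. CCAAT stood in 28 (80.0%), against 37.9%, and at least 2 copies in 18 (51.4%), against 13.2%. Both kinds occurred in 22 windows (62.9%), against 5.6%. Of 27 windows of G1/S genes, 18.5% held CHR-type letters and 66.7% CCAAT, and of 66 windows of other G2/M genes 66.7% and 54.5%. Unlike the members and the background, these 2 lists were not limited to genes with a tested probe set. A match is a description of the letters, not a binding site. Each gene has 1 window, and in 15 of 43 windows of members, tested or not, its start is the outermost start of the gene. The start lies 41951 bases inside that outermost start in Kif11, 35359 in Nuf2, 9977 in Smc2 and 2121 in Aurka. Letters near other starts of a gene were not looked up. Motif copies of the 2 kinds may overlap.

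The windows of 9 of the genes compared below are printed as examples. They run 5′ to 3′ on the gene's own strand, from 170 bases before to 29 bases after the start (GRCr8, RefSeq). All 9 hold CCAAT, whereas 28 of the 35 windows do. Capitals mark CHR-type letters and CCAAT, each read on either strand, so CCAAT of the other strand reads ATTGG and TTTGAA of the other strand reads TTCAAA. The first 6 genes hold CHR-type letters, while the windows of Ccnb1, Kif20a and Dlgap5 hold CCAAT without them. They are Ccnb2 at chr8:79981629-79981828 on the minus strand, Cdk1 at chr20:19265123-19265322 on the plus strand, Cdc20 at chr5:137255770-137255969 on the minus strand, Plk1 at chr1:186147488-186147687 on the plus strand, Top2a at chr10:84473064-84473263 on the minus strand, Mki67 at chr1:199952564-199952763 on the minus strand, Ccnb1 at chr2:33655196-33655395 on the minus strand, Kif20a at chr18:26504252-26504451 on the plus strand, and Dlgap5 at chr15:23144147-23144346 on the minus strand.
Ccnb2: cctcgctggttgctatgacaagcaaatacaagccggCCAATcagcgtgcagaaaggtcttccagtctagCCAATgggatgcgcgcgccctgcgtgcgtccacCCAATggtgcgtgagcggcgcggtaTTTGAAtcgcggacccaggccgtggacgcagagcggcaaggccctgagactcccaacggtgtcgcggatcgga
Cdk1: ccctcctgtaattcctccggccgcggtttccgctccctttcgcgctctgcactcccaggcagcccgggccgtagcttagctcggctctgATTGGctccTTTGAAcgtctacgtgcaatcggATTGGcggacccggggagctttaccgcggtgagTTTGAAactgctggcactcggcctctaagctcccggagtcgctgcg
Cdc20: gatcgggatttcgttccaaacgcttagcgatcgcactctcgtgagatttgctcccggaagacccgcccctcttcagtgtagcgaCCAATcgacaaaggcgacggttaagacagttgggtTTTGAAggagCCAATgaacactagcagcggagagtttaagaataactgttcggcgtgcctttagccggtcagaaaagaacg
Plk1: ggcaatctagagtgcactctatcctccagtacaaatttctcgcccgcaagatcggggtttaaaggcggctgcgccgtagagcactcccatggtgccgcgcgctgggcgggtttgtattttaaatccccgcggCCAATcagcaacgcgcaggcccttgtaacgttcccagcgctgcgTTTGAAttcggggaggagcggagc
Top2a: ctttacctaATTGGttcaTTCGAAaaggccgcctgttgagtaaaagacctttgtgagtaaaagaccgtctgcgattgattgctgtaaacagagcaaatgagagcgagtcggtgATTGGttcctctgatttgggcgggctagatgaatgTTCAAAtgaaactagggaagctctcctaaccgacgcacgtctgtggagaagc
Mki67: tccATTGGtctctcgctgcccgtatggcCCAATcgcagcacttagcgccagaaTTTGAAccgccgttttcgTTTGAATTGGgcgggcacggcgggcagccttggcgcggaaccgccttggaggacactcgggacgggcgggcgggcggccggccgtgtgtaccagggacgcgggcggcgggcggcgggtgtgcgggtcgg
Ccnb1: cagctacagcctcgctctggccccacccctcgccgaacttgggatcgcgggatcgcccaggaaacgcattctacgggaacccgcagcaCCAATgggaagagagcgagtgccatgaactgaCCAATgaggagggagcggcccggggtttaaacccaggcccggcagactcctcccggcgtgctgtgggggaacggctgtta
Kif20a: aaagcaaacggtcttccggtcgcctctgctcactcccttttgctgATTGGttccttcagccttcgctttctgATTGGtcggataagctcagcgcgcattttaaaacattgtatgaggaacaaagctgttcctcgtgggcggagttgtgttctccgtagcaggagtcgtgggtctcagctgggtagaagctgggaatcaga
Dlgap5: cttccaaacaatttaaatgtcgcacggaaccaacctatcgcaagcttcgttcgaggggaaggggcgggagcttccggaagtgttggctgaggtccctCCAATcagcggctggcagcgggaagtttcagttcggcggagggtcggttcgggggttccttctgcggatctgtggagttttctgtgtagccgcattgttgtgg

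In Ccnb2, the CHR-type letters nearest the start begin 43 bases before the start, downstream of 3 copies of CCAAT that begin 134, 101 and 68 bases before it. Cdk1 has CHR-type letters at 72 and 16 bases before the start. In Mki67 the copy that begins 99 bases before the start shares its last letter with an ATTGG. Among the 35 genes, the median log2 difference of the brightest probe set between vehicle 48 h and vehicle 4 h was -0.53 for the 25 genes with CHR-type letters (lowest -0.89, highest -0.081) and -0.55 for the 10 without (lowest -1.04, highest 0.21). The ranges overlapped.

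**Figure D1:**
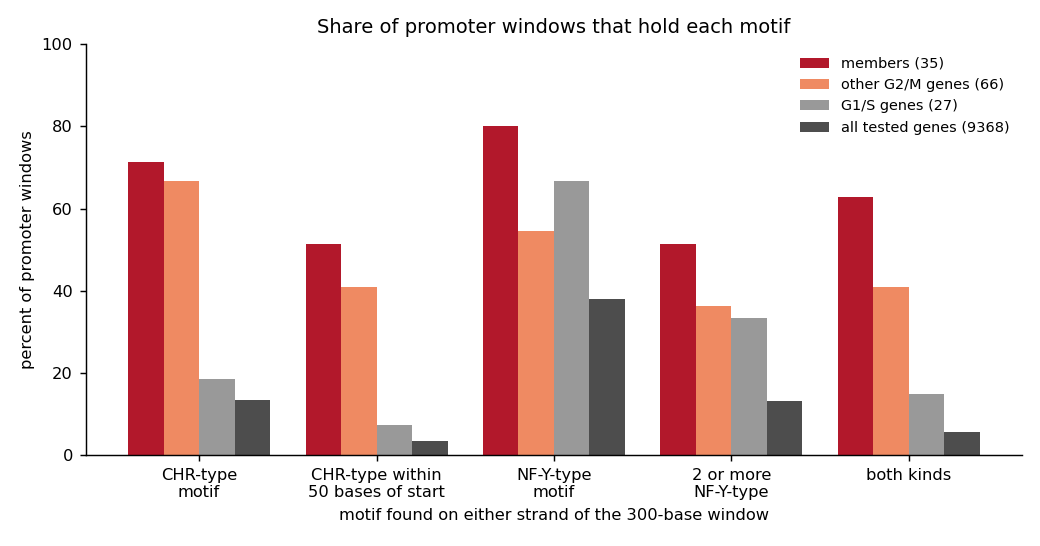
Percent of 300-base promoter windows that hold each motif on either strand, for the 35 tested members with a window, 66 other G2/M genes, 27 G1/S genes and all 9368 tested genes. The other G2/M and G1/S genes were not limited to tested genes. CHR-type stands for TTTGAA or TTCGAA and NF-Y-type for CCAAT, and the members hold CHR-type letters in 71.4% of windows, against 13.4% over all tested genes.

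Signals were MAS5 values on a linear scale, and differences are given on the log2(signal + 50) scale, which compresses differences of small signals. The 13 kept arrays correlated with each other at r of 0.928 to 0.962 across tested probe sets, and the number of arrays limits the precision. Of the defining markers of satellite cells, Pax7 and Myf5 are not represented in the annotation. Of 14 satellite cell and myoblast markers, 11 had a probe set, and 8 of these reached the minimum. Cd34 was also without one. Myod1, a myoblast transcription factor, lay below the minimum with a mean of 83.9, as did Chrna1 (201) and Mymk (286). Myog, a factor of muscle differentiation, and the adhesion protein Cdh15 averaged 1117 and 1275. The brightest of the list were the proteoglycan Sdc4 (8548) and the chemokine receptor Cxcr4 (2848). Fibroblast collagen genes were bright, with Col1a2 at a mean of 134200, and 9 of 10 fibroblast markers lay above the minimum. Their summed signal was 388819 to 488439 on the NARA 48 h arrays, 380022 to 469408 on vehicle 48 h, 408417 to 446773 on NARA 4 h and 386770 to 447616 on vehicle 4 h, so the groups overlapped. The summed signal of smooth muscle markers was 9320 to 13168, 14087 to 16113, 16375 to 24873 and 16705 to 24252 in the same order of groups, and was lower at 48 h than at 4 h in both treatments. The brightest in this sum were Tagln (mean 9821) and Acta2 (mean 5347). The markers did not move together: of 5 tested probe sets, 3 lay lower and 2 higher at 48 h in vehicle, with the same counts in NARA. Their part in the results below was not tested. In these bulk samples, fewer dividing cells and less RNA of a gene per cell cannot be told apart.

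Of the tested members, Bub3, a checkpoint protein, had the brightest probe set (mean 8289), followed by Cdca3 (4821) and Cks2 (3885). The dimmest that passed were a Kif11 probe set (1385619_at, mean 336) and 2 of Cdc20 (417 and 425). Just below the minimum lay another Cdc20 probe set (298) and the only one of Cdca8 (286), a subunit of the chromosomal passenger complex. The only probe set of Cenpa, the centromeric histone, averaged 185 and a second one of Foxm1 averaged 93.1. These 4 were not tested. Cdca8 read 156, 114, 58.3 and 114 on the NARA 48 h arrays, 300.2, 423 and 607 on vehicle 48 h, 532 and 71.6 on NARA 4 h and 201, 114, 918 and 107 on vehicle 4 h.

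The first comparison asked how the mitosis genes differed after 48 h in culture without drug. In vehicle, 56 of the 57 probe sets lay lower at 48 h than at 4 h, with a median log2 difference of -0.52 (0.695-fold), against 0.0045 over all probe sets tested. The kinase Pbk (-1.10), the kinesin Kif20a (-1.04), the cyclins Ccna2 (-0.99) and Ccnb1 (-0.95) and the checkpoint protein Mad2l1 (-0.89) lay lowest, and only Dlgap5, a spindle protein, lay higher (0.21). With limma, 0 of the 57 passed the threshold of an adjusted p of 0.05, as did 0% of all probe sets, and the lowest adjusted p was 0.421. At an unadjusted p under 0.05, 34 of 57 (59.6%) were lower and 0 higher, while 3.89% of all probe sets were lower and 3.45% higher at that level. For 19 of 57 (33.3%) every vehicle 48 h array lay below every vehicle 4 h array, against 4.62% of all probe sets.

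These probe sets vary together from array to array, so they are not 57 separate observations of the condition. Vehicle 4 h replicate 3 was the highest of its group for 50 of the 57 members and for 27% of all probe sets. The median signal of the 57 was 1008, 1151 and 1049 on the vehicle 48 h arrays, against 1957, 1365, 2421 and 1322 on the vehicle 4 h arrays. Each vehicle 48 h array lay below each vehicle 4 h array, while the vehicle 4 h arrays differed among themselves by more than the vehicle 48 h arrays did. Without vehicle 4 h replicate 3 the median difference was -0.42, 52 of 57 were lower, and 19 had an unadjusted p under 0.05. That count was also 19 without vehicle 48 h replicate 2 and 22 without vehicle 48 h replicate 4.

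**Figure D2:**
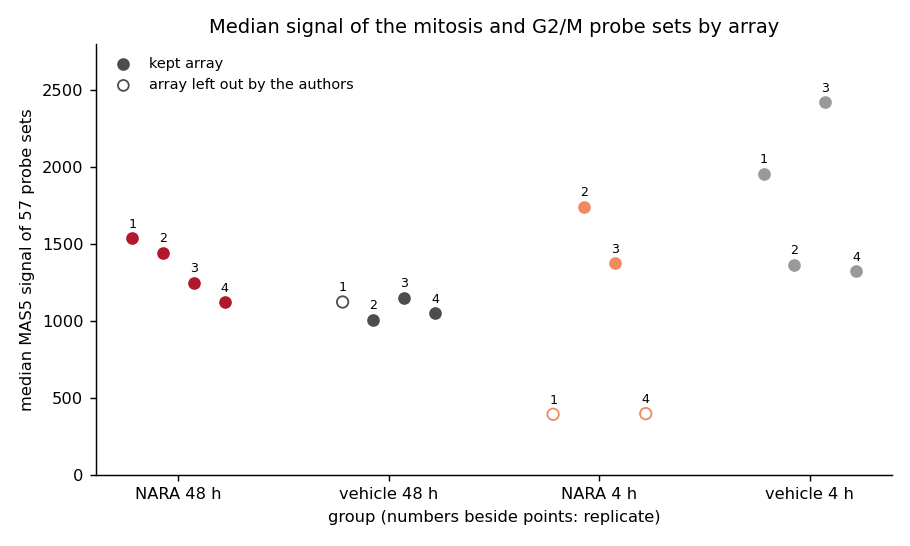
Median MAS5 signal of the 57 tested mitosis and G2/M probe sets on each of the 16 arrays by group, with filled points for kept arrays and open points for arrays the authors left out. The kept vehicle 48 h arrays lie at 1008 to 1151, below the vehicle 4 h arrays at 1322 to 2421, and the open NARA 4 h points lie at 393 and 397.

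Among the kinases and cyclins of mitotic entry, all 13 tested probe sets were lower in vehicle at 48 h, 10 of them at an unadjusted p under 0.05, with a median of -0.68. Ccnb1, the main B-type cyclin partner of Cdk1, gave signals of 1159, 1227 and 1285 on the vehicle 48 h arrays, against 2549.7, 2173, 3201 and 1909.7 on the vehicle 4 h arrays. The groups did not overlap, and the log2 difference was -0.95 (SE 0.18, adjusted p = 0.421). Its second probe set (1370346_at) lay at -0.66 (SE 0.22, adjusted p = 0.565). Ccnb2, the other B-type cyclin, read 3026, 2551 and 2613 on the vehicle 48 h arrays, against 4861, 3684, 5880.5 and 3500.1 on the vehicle 4 h arrays, and its groups also stood apart, at -0.68 (SE 0.26, adjusted p = 0.639). The S and G2 cyclin Ccna2 gave 618, 898 and 1006 on the vehicle 48 h arrays, against 2026, 1288, 2451 and 1270.2 on the vehicle 4 h arrays, with no overlap and a difference of -0.99 (SE 0.25, adjusted p = 0.45). Cdk1 itself, at 3240.2, 3421 and 3095 on the vehicle 48 h arrays, against 4717, 4274, 6001 and 3406 on the vehicle 4 h arrays, overlapped on 1 array pair and differed by -0.47 (SE 0.18, adjusted p = 0.644). The Cdk1-binding subunit Cks2 lay at -0.78 (SE 0.22, adjusted p = 0.498) and Cdca3, which promotes destruction of the Cdk1 inhibitor Wee1, at -0.75 (SE 0.23, adjusted p = 0.553).

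Pbk, a mitotic kinase, had the lowest value of all members, with 639, 1162 and 894 on the vehicle 48 h arrays, against 2162, 1501, 2933 and 1468 on the vehicle 4 h arrays and a difference of -1.10 (SE 0.27, adjusted p = 0.45). Of the kinases that trigger centrosome separation and spindle assembly, Plk1 read 880.4, 1059 and 984 on the vehicle 48 h arrays, against 1488, 901, 2118 and 1339 on the vehicle 4 h arrays, so that the groups overlapped, and differed by -0.50 (SE 0.23, adjusted p = 0.677). Aurka differed by -0.87 (SE 0.57, adjusted p = 0.765), with a standard error above that of most members. Melk, a kinase of dividing cells, lay at -0.64 (SE 0.31, adjusted p = 0.692) and the Cdk1-activating phosphatase Cdc25b at -0.40 (SE 0.16, adjusted p = 0.644). Foxm1, a transcription factor that drives G2/M genes, had the smallest difference of this group. It gave 669, 785 and 398 on the vehicle 48 h arrays, against 637, 715, 1005 and 417 on the vehicle 4 h arrays, with broad overlap and a difference of -0.14 (SE 0.47, adjusted p = 0.965).

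**Figure D3:**
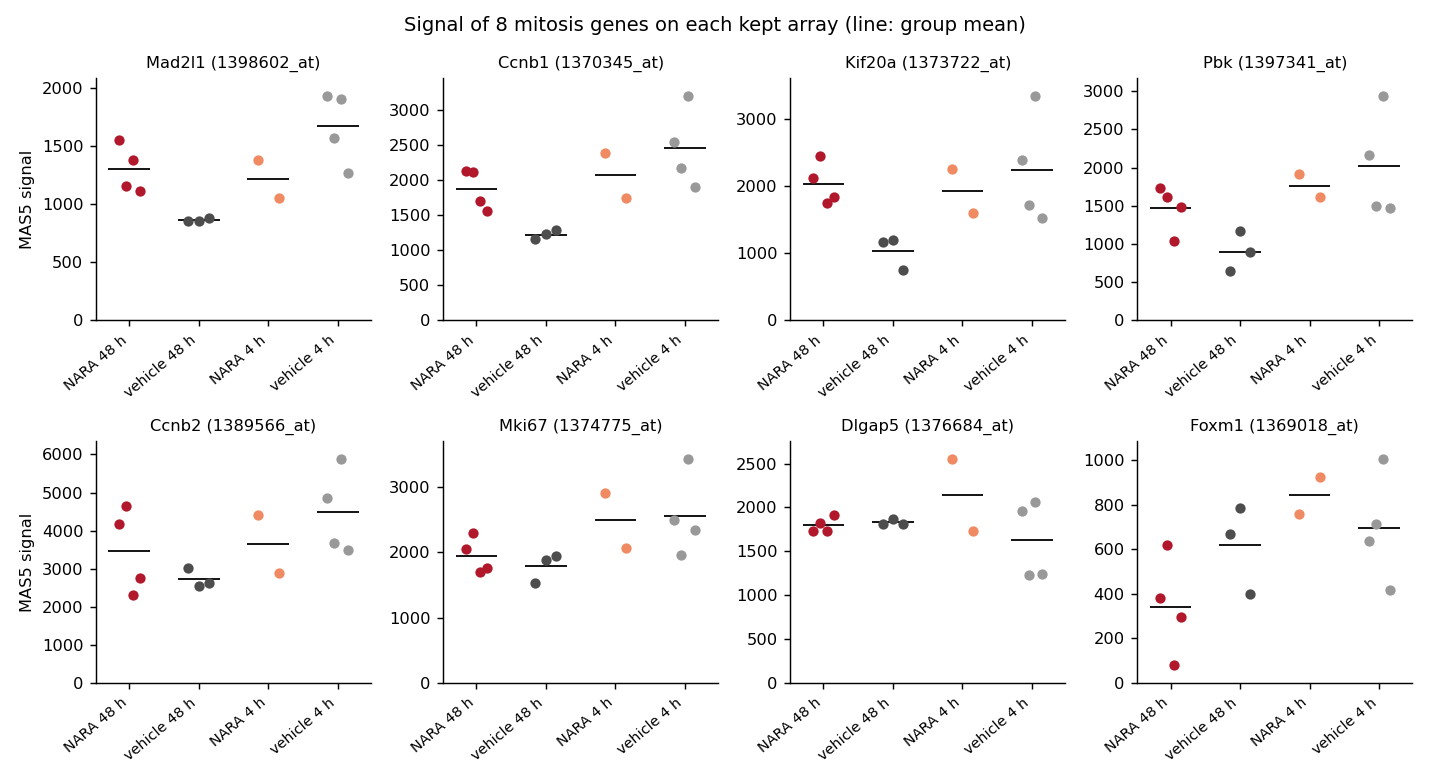
MAS5 signal on a linear axis of 8 mitosis genes on each of the 13 kept arrays, 1 panel a gene, with points for arrays and a line for the group mean. Mad2l1, Ccnb1 and Kif20a stand lower on all 3 vehicle 48 h arrays than on every NARA 48 h and vehicle 4 h array, whereas Dlgap5 overlaps between groups.

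The spindle checkpoint proteins stop anaphase while kinetochores are unattached. All 9 of their probe sets lay lower in vehicle at 48 h, 5 at an unadjusted p under 0.05 (median -0.36). Mad2l1, which forms the inhibitor of Cdc20, had the smallest p of all members on its brightest probe set (1398602_at), with 856, 857 and 880.4 on the vehicle 48 h arrays, against 1926, 1571, 1906 and 1263 on the vehicle 4 h arrays and a difference of -0.89 (SE 0.17, adjusted p = 0.421). Its arrays did not overlap and were close to each other at 48 h. The other Mad2l1 probe sets gave smaller differences of -0.36 and -0.34, both overlapping. The kinase Ttk lay at -0.87 and -0.61 on its 2 probe sets, and the checkpoint proteins Bub1b and Bub1 at -0.77 and -0.34. These overlapped, apart from the dimmer Ttk probe set. Bub3 differed least among the brightest probe sets of this role, by -0.26 (SE 0.11, adjusted p = 0.657), but its signals of 6341, 7464 and 7671 on the vehicle 48 h arrays, against 9152, 7700.2, 9596 and 7914 on the vehicle 4 h arrays did not overlap.

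Pttg1, the securin that guards sister chromatid cohesion, is grouped here with genes of the anaphase-promoting complex. It read 1775, 2315 and 1843 on the vehicle 48 h arrays, against 2993, 2763, 3809.9 and 2272 on the vehicle 4 h arrays. One vehicle 4 h array lay within the vehicle 48 h range, and the difference was -0.56 (SE 0.17, adjusted p = 0.553). Ube2c, the ubiquitin-conjugating enzyme of the complex, differed by -0.52 (SE 0.21, adjusted p = 0.652). The 4 tested Cdc20 probe sets, for its mitotic activator, lay between -0.76 and -0.16, and the brightest (1370294_a_at) at -0.46 (SE 0.23, adjusted p = 0.695). At the kinetochore, all 4 probe sets lay lower: Nuf2 at -0.71 (SE 0.24, adjusted p = 0.579), its partner in the Ndc80 complex, Spc25, at -0.67, the kinetochore motor Cenpe at -0.46 and Cenpf, a large kinetochore protein, at -0.45. Only Nuf2 of these had no overlap between its groups.

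The chromosomal passenger complex, which corrects faulty attachments, had 2 tested genes that differed from each other in size. Its kinase Aurkb lay at -0.59 (SE 0.21, adjusted p = 0.605). Birc5, or survivin, read 804, 1285 and 1049 on the vehicle 48 h arrays, against 968, 958, 1605 and 946 on the vehicle 4 h arrays, overlapped broadly and differed by -0.081 (SE 0.21, adjusted p = 0.957). Of the kinesins and spindle-associated proteins, 8 of 9 probe sets lay lower, only 2 at an unadjusted p under 0.05 (median -0.43), from Nusap1 at -0.55 (SE 0.20, adjusted p = 0.625) to Dlgap5 at 0.21 (SE 0.20, adjusted p = 0.85). Dlgap5, which stabilises spindle microtubules, gave 1814, 1869 and 1809 on the vehicle 48 h arrays, against 1957, 1231, 2065 and 1241 on the vehicle 4 h arrays. The 48 h arrays lay inside the range of the 4 h arrays. The bipolar spindle motor Kif11 lay at -0.25 on its brighter probe set, and Kif2c, which depolymerises microtubules, and Hmmr, a spindle pole protein, at -0.43 and -0.33 on theirs.

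Genes of the central spindle and cytokinesis lay lower on all 8 probe sets, 7 at an unadjusted p under 0.05 (median -0.57). Kif20a, a kinesin that carries the passenger complex to the midzone, gave 1171, 1194 and 752 on the vehicle 48 h arrays, against 2394, 1724, 3341 and 1528 on the vehicle 4 h arrays. No arrays overlapped, and the difference was -1.04 (SE 0.26, adjusted p = 0.45). Ect2, the exchange factor that activates RhoA at the cleavage furrow, read 1616, 1465 and 1232 on the vehicle 48 h arrays, against 2879.9, 2024, 3799 and 2001 on the vehicle 4 h arrays and lay at -0.83 (SE 0.24, adjusted p = 0.506). Its partner Racgap1 lay at -0.68 (SE 0.21, adjusted p = 0.553), Kif20b, a kinesin related to Kif20a, at -0.60, Prc1, which bundles midzone microtubules, at -0.53 and Kif23, the kinesin bound to Racgap1, at -0.51 and -0.26. Among genes of chromosome structure, all 6 probe sets were lower (median -0.54). The condensin subunit Smc2 lay at -0.73 (SE 0.24, adjusted p = 0.565) and Smc4 at -0.44 and -0.33. Topoisomerase Top2a lay at -0.60 on its brighter probe set and -0.87 on the other. Mki67, the proliferation marker, read 1529, 1878 and 1950.2 on the vehicle 48 h arrays, against 2494, 1961, 3431 and 2340.5 on the vehicle 4 h arrays, with no overlap and a difference of -0.48 (SE 0.20, adjusted p = 0.652).

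Of the 13 member genes with several tested probe sets, 29 in all, 0 disagreed in sign in this comparison. Of the 39 probe sets averaging 1000 or more, 28 had an unadjusted p under 0.05 and a median of -0.56, with a median SE of 0.21. Among the 18 dimmer ones, 6 did, with a median of -0.45 and a median SE of 0.30.

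**Figure D4:**
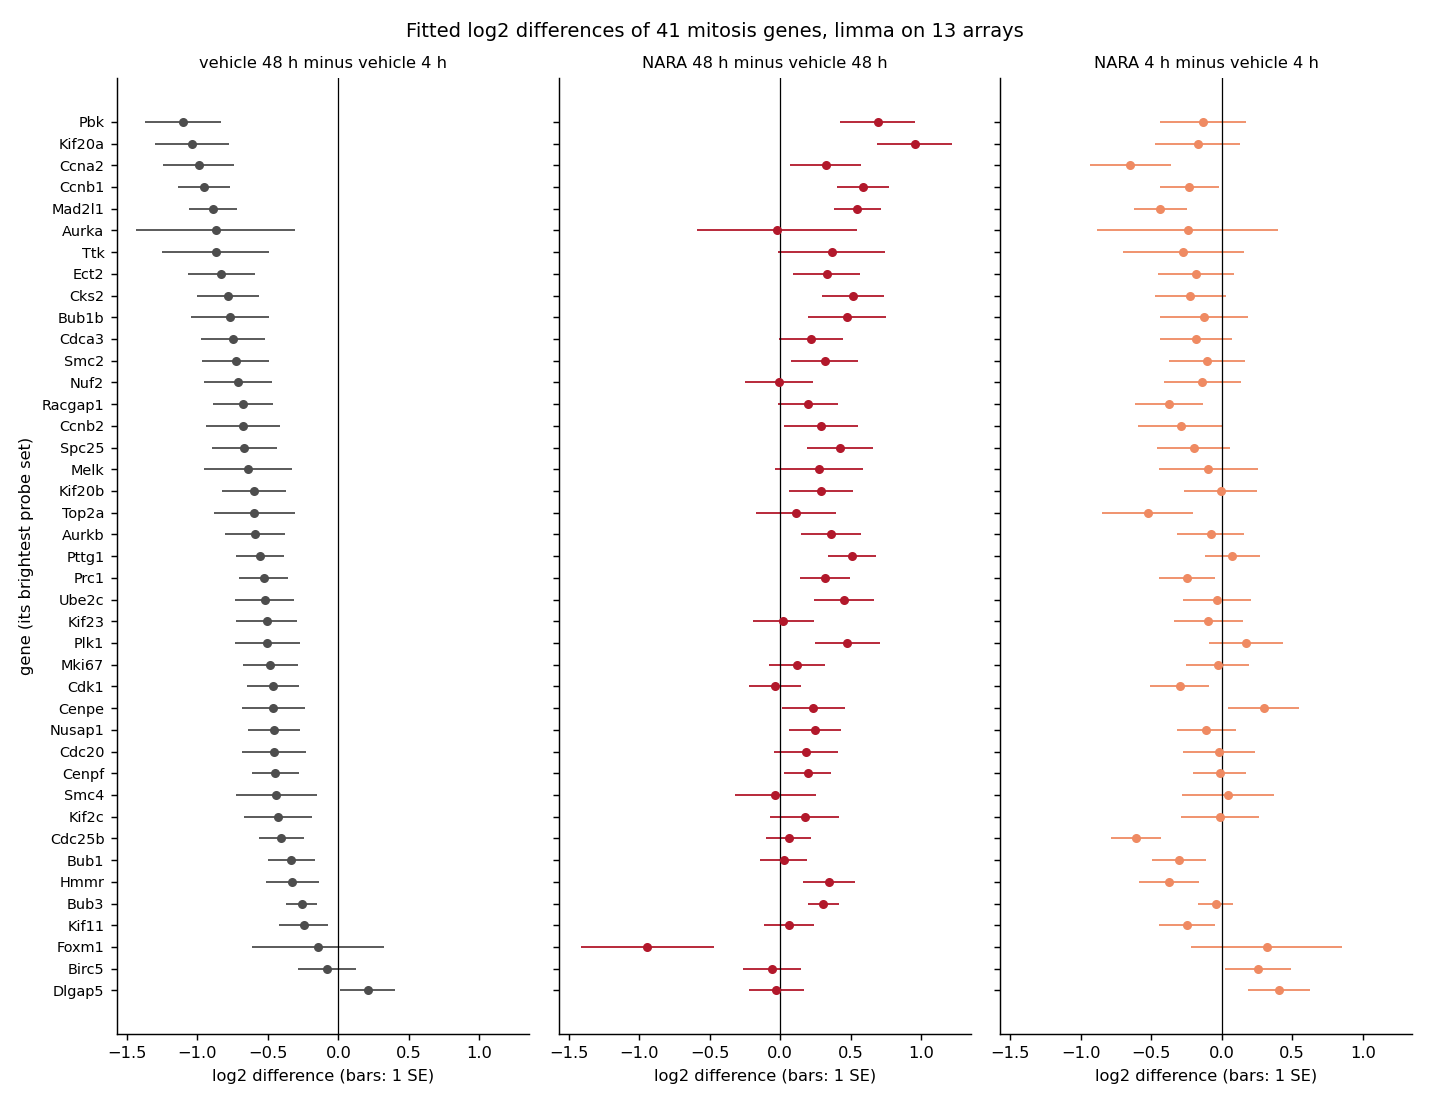
Fitted log2 differences, with bars of 1 SE, of the brightest probe set of 41 mitosis genes for vehicle 48 h minus vehicle 4 h, NARA 48 h minus vehicle 48 h and NARA 4 h minus vehicle 4 h, with genes in the same order in each panel. In the first panel 40 of 41 genes lie below 0, in the second 34 of 41 lie above 0 and the first 2 panels share the vehicle 48 h arrays.

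The next comparison asked whether NARA changed these genes after 48 h. The members lay mostly higher in NARA, on 47 of 57 probe sets, with a median log2 difference of 0.27 (1.21-fold), against -0.0037 over all probe sets. Taking the brightest probe set of each gene, Kif20a lay highest (0.95), followed by Pbk (0.69), Ccnb1 (0.59), Mad2l1 (0.55), Cks2 (0.52) and Pttg1 (0.51), while Foxm1 lay lower (-0.94). With limma, 0 of 57 members passed the adjusted threshold, although 2.8% of all probe sets did. At an unadjusted p under 0.05, 8 of 57 (14%) were higher and 0 lower, against 7.63% of all probe sets higher and 8.38% lower. For 9 of 57 (15.8%) every NARA 48 h array lay above every vehicle 48 h array, against 7.19% of all probe sets. The count of 8 was 5 without vehicle 48 h replicate 2, where the median was 0.19, and 14 when only the NARA 48 h and vehicle 48 h arrays were fitted. This comparison and the one of 48 h with 4 h in vehicle share the 3 vehicle 48 h arrays, so their values are not independent of each other.

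The median signal of the 57 probe sets was 1536, 1443, 1245 and 1120 on the NARA 48 h arrays, against 1008, 1151 and 1049 on the vehicle 48 h arrays. The highest vehicle array thus lay above the lowest NARA array. The vehicle 48 h array left out by the authors, replicate 1, had a median of 1123, within the range of the kept vehicle 48 h arrays. Markers moved in the same comparison. The summed signal of the satellite cell and myoblast markers was 11937 to 14399 on the NARA 48 h arrays, against 18354 to 22268 on the vehicle 48 h arrays, and 4 of their 12 tested probe sets passed the threshold as lower, 3 of the chemokine receptor Cxcr4 and 1 of the proteoglycan Sdc4. Of the other 8, 5 lay higher in NARA and 3 lower, and the integrin gene Itga7 (0.95) and a probe set of Ncam1 (0.63) had an unadjusted p under 0.05 without passing. Fibroblast markers also went both ways, 7 of 12 tested probe sets lower and 5 higher. Those of the matrix protein Lum (-1.05, SE 0.10, adjusted p = 0.000248) and the receptor Pdgfra (-0.75, SE 0.18, adjusted p = 0.0454) passed as lower. Dcn (-0.56, SE 0.15, adjusted p = 0.0822) and Postn (-0.59, SE 0.19, adjusted p = 0.147) also lay lower without overlap. Both had an unadjusted p under 0.05 without passing. Collagen probe sets of Col3a1 (0.39), Col1a1 (0.48) and Col1a2 (0.26) lay higher at an unadjusted p under 0.05 without passing. The brighter probe sets of Col1a1 (0.035) and Col1a2 (0.23) had no unadjusted p under 0.05. The summed fibroblast signals overlapped. The summed smooth muscle signal of 9320 to 13168 on the NARA 48 h arrays lay below the 14087 to 16113 on the vehicle 48 h arrays. Of the 5 tested smooth muscle probe sets, 4 lay lower and 1 higher. The part of these markers in the values of the mitosis genes was not tested.

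Kif20a gave the smallest p, with 2118, 2451, 1744 and 1838 on the NARA 48 h arrays, against 1171, 1194 and 752 on the vehicle 48 h arrays. The groups did not overlap, and the difference was 0.95 (SE 0.26, adjusted p = 0.0889). Kif20a passed the threshold in 4 of 25 other settings and missed it in the rest. Its adjusted p was 0.0384 when vehicle 48 h replicate 1 was put back, 0.0183 with a trended and robust prior, 0.0244 with a minimum signal of 1000 and 0.0492 without vehicle 4 h replicate 3. Mad2l1 (1398602_at) read 1547, 1158, 1374 and 1114 on the NARA 48 h arrays, against 856, 857 and 880.4 on the vehicle 48 h arrays, also apart, with 0.55 (SE 0.17, adjusted p = 0.121). Its other probe sets lay at 0.30 without overlap and at 0.093 with overlap. Ccnb1 (1370345_at) gave 2139, 2114, 1707 and 1558 on the NARA 48 h arrays, against 1159, 1227 and 1285 on the vehicle 48 h arrays and a difference of 0.59 (SE 0.18, adjusted p = 0.13), against 0.27 (SE 0.22, adjusted p = 0.603) on its second probe set, which overlapped. With a minimum of 1000, Mad2l1 and Ccnb1 passed as well, at adjusted p of 0.0401 and 0.0437, and they passed in no other setting.

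Pttg1 read 2874, 3256, 2586 and 2605 on the NARA 48 h arrays, against 1775, 2315 and 1843 on the vehicle 48 h arrays, with no overlap and a difference of 0.51 (SE 0.17, adjusted p = 0.156). Cks2 gave 4259, 4591, 3286 and 3347 on the NARA 48 h arrays, against 2532, 2869 and 2589.5 on the vehicle 48 h arrays, again apart, at 0.52 (SE 0.22, adjusted p = 0.271). Bub3 stood apart with a smaller difference of 0.30 (SE 0.11, adjusted p = 0.187), from 8572, 8827, 8866 and 9038 on the NARA 48 h arrays, against 6341, 7464 and 7671 on the vehicle 48 h arrays. Pbk differed by 0.69 (SE 0.27, adjusted p = 0.228) with 1 NARA array inside the vehicle range, and the dimmer Top2a probe set by 0.76 (SE 0.30, adjusted p = 0.228), while the brighter one lay at 0.11. Ube2c (0.45, SE 0.21, adjusted p = 0.324) and Plk1 (0.48, SE 0.23, adjusted p = 0.343) had no overlap between groups, and their unadjusted p missed 0.05. Racgap1 on its dimmer probe set lay at 0.41 (SE 0.19, adjusted p = 0.339).

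Cdk1, Mki67, Nuf2, Birc5, Aurka and Dlgap5 differed by less than their standard error at 48 h. Cdk1 read 3652, 3384, 2787 and 2903 on the NARA 48 h arrays, against 3240.2, 3421 and 3095 on the vehicle 48 h arrays, with overlap and a difference of -0.038 (SE 0.18, adjusted p = 0.951). Mki67 lay at 0.12 (SE 0.20, adjusted p = 0.824), Nuf2 at -0.0051 (SE 0.24, adjusted p = 0.996), Birc5 at -0.057 (SE 0.21, adjusted p = 0.93), Aurka at -0.020 (SE 0.57, adjusted p = 0.994) and Dlgap5 at -0.027. Ccnb2 (0.29), Ccna2 (0.32), Aurkb (0.36) and Cdc20 (0.19 on its brightest probe set) lay higher with overlap. A p that misses the threshold does not show that the groups are alike. Foxm1 went the other way, with 379, 617, 78.8 and 295 on the NARA 48 h arrays, against 669, 785 and 398 on the vehicle 48 h arrays. The groups overlapped, 1 NARA array was far below the others, and the difference was -0.94 (SE 0.47, adjusted p = 0.362). By role, 8 of 9 checkpoint, 8 of 9 spindle, 7 of 8 cytokinesis, 10 of 13 entry, 5 of 6 chromosome structure, 5 of 6 anaphase-promoting complex, 3 of 4 kinetochore and 1 of 2 passenger probe sets lay higher in NARA. Probe sets of 1 gene disagreed in sign for Cdc20, Kif23, Smc4 and Ttk.

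**Figure D5:**
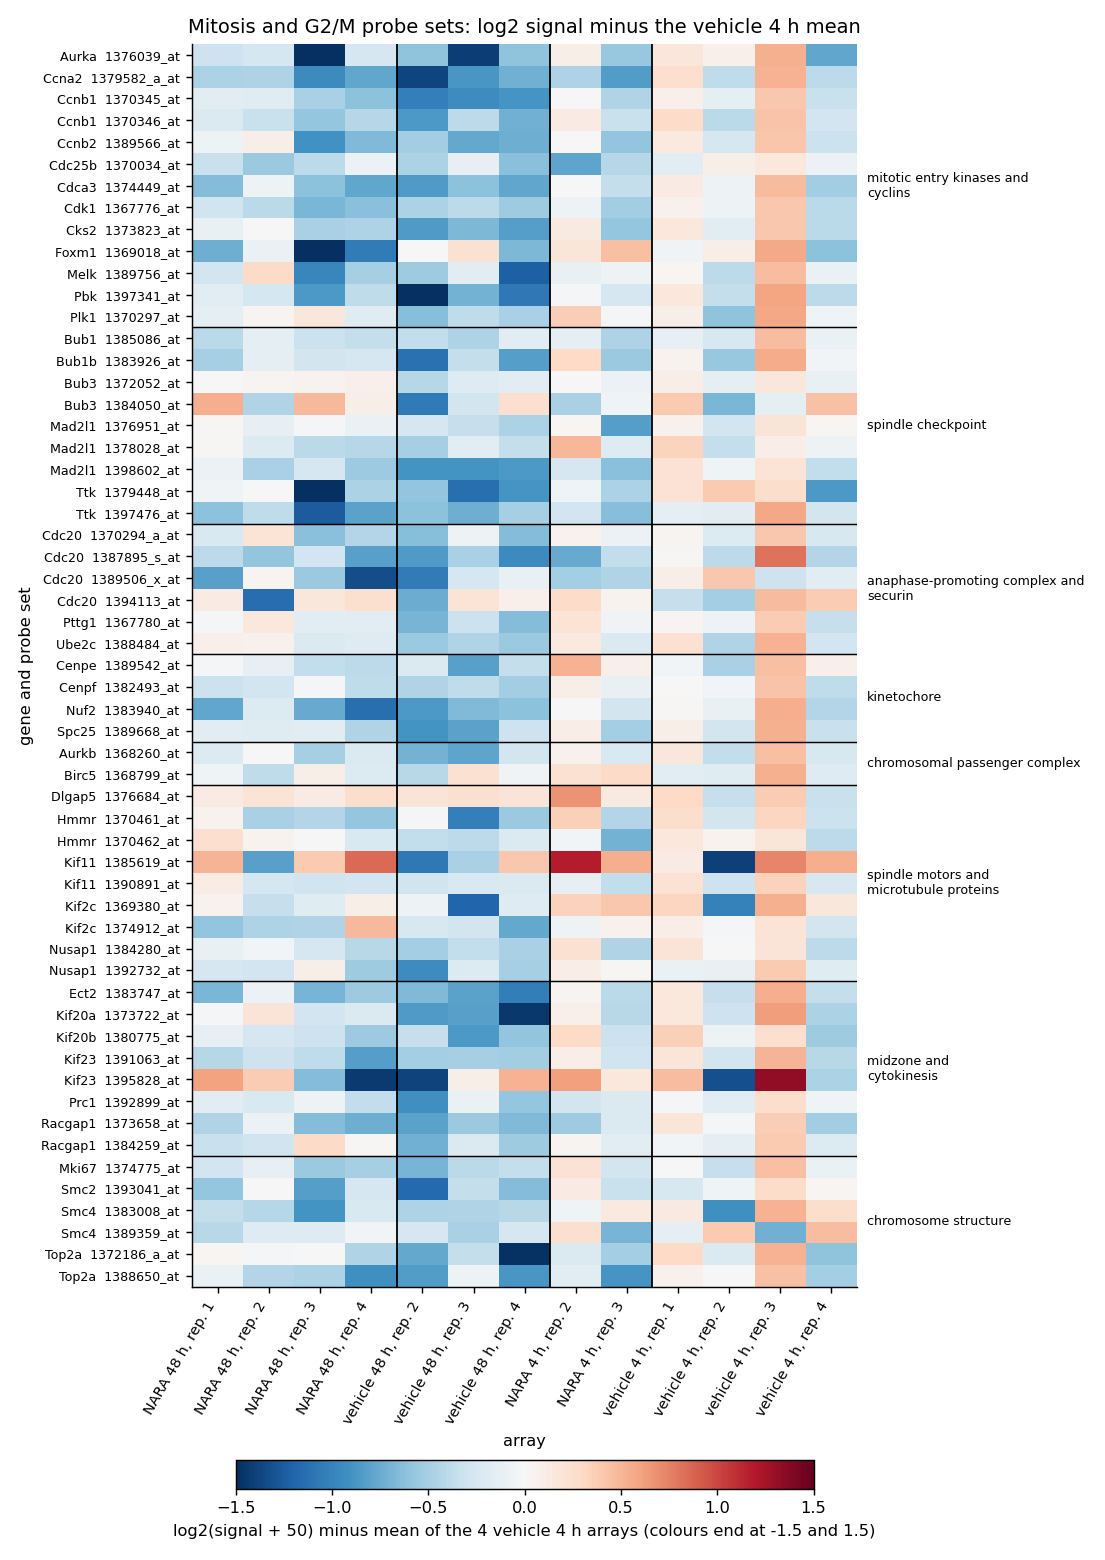
Log2(signal + 50) of the 57 tested probe sets minus the mean of the 4 vehicle 4 h arrays, with probe sets in rows grouped by role and the 13 kept arrays in columns by group. Blue means below and red above that mean, and the vehicle 48 h columns are blue in most rows while the vehicle 4 h replicate 3 column is red in most rows.

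At 4 h, NARA and vehicle differed less. Of the 57 members, 44 lay lower in NARA and 13 higher, with a median of -0.13, against 0.0072 over all probe sets. With limma, 0 passed the adjusted threshold, as did 0% of all probe sets. At an unadjusted p under 0.05, 3 (5.26%) were lower and 0 higher, against 2.69% of all probe sets lower, and for 5 (8.77%) both NARA arrays lay below all vehicle arrays, against 6.96%. Cdc25b gave the smallest p, with 550.5 and 725 on the NARA 4 h arrays, against 884, 1052, 1115 and 927 on the vehicle 4 h arrays and a difference of -0.61 (SE 0.18, adjusted p = 0.725), and its groups did not overlap. Ccna2 read 1214 and 926 on the NARA 4 h arrays, against 2026, 1288, 2451 and 1270.2 on the vehicle 4 h arrays, also apart, at -0.65 (SE 0.29, adjusted p = 1). Mad2l1 (1398602_at) overlapped and lay at -0.43 (SE 0.19, adjusted p = 1), with its other probe sets at -0.40 and 0.15.

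The direction at 4 h rested on single arrays. The members' median signal was 1739 and 1374 on the NARA 4 h arrays, against 1957, 1365, 2421 and 1322 on the vehicle 4 h arrays, and NARA 4 h replicate 2 exceeded replicate 3 for 45 of the 57. Without NARA 4 h replicate 3 the median was 0.053, without vehicle 4 h replicate 3 it was 0.031, and without NARA 4 h replicate 2 it was -0.32. Among core members, Ccnb1 (1370345_at) lay at -0.23, Cdk1 at -0.30, Ccnb2 at -0.29, Top2a at -0.53, Aurka at -0.24, Aurkb at -0.080, Mki67 at -0.029, Cdc20 at -0.020, Plk1 at 0.17, Birc5 at 0.26 and Foxm1 at 0.32. The other values nearest the threshold were those of Mad2l1 (1376951_at), Dlgap5 (0.40), Cdc20 (1387895_s_at, -0.56), Hmmr (1370462_at, -0.38), Ttk (1397476_at, -0.46), Top2a, Bub1 (-0.30) and Racgap1 (1373658_at, -0.37), each with adjusted p = 1. Probe sets of 1 gene disagreed in sign for 7 of 13 genes, Cdc20, Kif11, Kif23, Kif2c, Mad2l1, Nusap1 and Smc4.

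The last contrasts set the NARA arrays against each other and the 2 NARA effects against each other. In NARA, the members at 48 h lay at a median of -0.21 from those at 4 h, 44 lower and 13 higher, and 0 passed the threshold while 0.785% of all probe sets did. Foxm1 alone had an unadjusted p under 0.05 (5.85% of all probe sets were lower at that level). It gave 379, 617, 78.8 and 295 on the NARA 48 h arrays, against 760.0 and 926 on the NARA 4 h arrays, with no overlap and a difference of -1.40 (SE 0.53, adjusted p = 0.322). For 6 of 57 (10.5%) the NARA 48 h arrays lay below both NARA 4 h arrays, near the 10.9% of all probe sets. These were probe sets of Foxm1, Birc5, Cenpe, Smc4, Kif2c and Kif23. The next smallest p were those of Nuf2 (-0.58), Cenpe (-0.52), Hmmr (1370462_at, 0.40), Mad2l1 (1378028_at, -0.40, and 1376951_at, 0.34), Birc5 (-0.39), Kif23 (1391063_at, -0.39), Smc4 (1383008_at, -0.52) and Mki67 (-0.34). Without NARA 4 h replicate 2 the median was -0.0025 and 30 lay lower. Ccnb1 (1370345_at, -0.13), Ccnb2 (-0.097), Ccna2 (-0.020), Cdk1 (-0.21), Plk1 (-0.20), Aurka (-0.65), Aurkb (-0.15), Cdc20 (1370294_a_at, -0.25) and Top2a (1388650_at, 0.042) gave no unadjusted p under 0.05. Probe sets of 1 gene disagreed in sign for Cdc20, Hmmr, Kif11, Mad2l1 and Smc4.

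The NARA effect at 48 h minus that at 4 h was above 0 for 48 of 57 members, with a median of 0.36 against -0.011 over all probe sets. This contrast contains the vehicle difference between 48 h and 4 h with its sign reversed, and that difference had a median of -0.52. It reuses the arrays of the comparisons above, so its values are not independent of theirs. Again 0 members passed, against 0.124% of all probe sets. An unadjusted p under 0.05 with a positive difference was found for 9 (15.8%), against 4.6% of all probe sets, and for 0 with a negative one. The smallest p was that of Mad2l1 (1398602_at), at 0.98 (SE 0.25, adjusted p = 0.244), followed by Ccnb1 (1370345_at) at 0.82 (SE 0.28, adjusted p = 0.412) and Kif20a at 1.13 (SE 0.40, adjusted p = 0.437). Cdc25b lay at 0.67, Ccna2 at 0.97, Hmmr (1370462_at) at 0.72, the second Mad2l1 probe set (1376951_at) at 0.70, Top2a (1372186_a_at) at 1.13 and Cks2 at 0.74. The count of 9 was 2 when NARA 4 h replicate 3 was left out (median 0.20), and 14 without vehicle 4 h replicate 2. Prc1 came next, at 0.57, with an unadjusted p that missed 0.05. Probe sets of 1 gene disagreed in sign for Cdc20, Kif11, Kif23, Mad2l1 and Smc4.

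Other genes of the same programme, from a separate list, had medians nearer 0 in the same comparisons. This list and those below were also chosen with earlier results of these data known, so they are no independent check of the members. In vehicle at 48 h against 4 h, 65 of 71 tested probe sets of other G2/M genes lay lower (median -0.40), and 0 passed the adjusted threshold. At an unadjusted p under 0.05, 26 (36.6%) were lower, while 3.89% of all probe sets were lower and 3.45% higher at that level. The smallest p were those of Cenpm, a centromere protein (-1.09, SE 0.24, adjusted p = 0.421), Plk4, the kinase of centriole duplication (-1.08, SE 0.24, adjusted p = 0.438), Shcbp1 (-1.16, SE 0.29, adjusted p = 0.45) and Spag5 (-0.60, SE 0.15, adjusted p = 0.451). Of 36 probe sets of G1/S genes, 30 lay lower (median -0.25), 11 (30.6%) at an unadjusted p under 0.05, and 0 passed. Gins1, of the replicative helicase, lay at -0.95 (SE 0.20, adjusted p = 0.421), the licensing factor Cdt1 at -0.62 (SE 0.15, adjusted p = 0.45), Pcna at -0.46 (SE 0.11, adjusted p = 0.45) and the thymidine kinase Tk1 at -0.72 (SE 0.19, adjusted p = 0.469). Of 47 probe sets of genes that regulate the mitotic programme, 30 lay lower (median -0.084), and 0 passed. At an unadjusted p under 0.05, 7 (14.9%) were lower and 1 (2.13%) higher. They were led by the pocket protein gene Rbl1 (-0.68, SE 0.18, adjusted p = 0.469), followed by the Cdk inhibitor Cdkn1a (-0.67, SE 0.24, adjusted p = 0.605), Anapc10 (-0.37) and Lin52 (0.34).

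In NARA at 48 h against vehicle, 1 of the 47 regulator probe sets passed and 0 of the other lists, a share below the 2.8% of all probe sets called in this comparison. Cdkn1c, a Cdk inhibitor that restrains proliferation, fell by 0.95 on the log2 scale (SE 0.23, adjusted p = 0.0488), with signals of 251, 285, 172 and 289 on the NARA 48 h arrays, against 444, 514 and 619 on the vehicle 48 h arrays. Each NARA 48 h signal lay below 300, so the probe set reached the minimum mean only through the other groups. The groups did not overlap, but the adjusted p missed 0.05 in 18 of 24 alternative settings, among them the fits without any 1 of the 13 arrays other than vehicle 4 h replicate 1, with a highest adjusted p of 0.374. The regulators as a list lay 28 lower and 19 higher (median -0.031). At an unadjusted p under 0.05, 7 (14.9%) were lower and 5 (10.6%) higher, against 8.38% and 7.63% of all probe sets. Among them, E2f1, a driver of S phase entry, lay at 0.45 (SE 0.12, adjusted p = 0.08), the Cdk inhibitor Cdkn1b at -0.30 (SE 0.081, adjusted p = 0.0833) and Anapc1 at -0.61 (SE 0.17, adjusted p = 0.0921). Of the other G2/M genes, 56 of 71 lay higher (median 0.18), 0 passing and 8 (11.3%) at an unadjusted p under 0.05, against the same 7.63%. They were led by Spag5 (0.58, SE 0.15, adjusted p = 0.0788), Parpbp (0.79), Cdca2 (0.77) and Cenpw (0.70). Of the G1/S genes, 25 of 36 lay higher (median 0.091), 0 passing and 5 (13.9%) at an unadjusted p under 0.05, led by Gins1 (0.67, SE 0.20, adjusted p = 0.117), Cdc45 (0.68 and 0.22) and Tk1 (0.45).

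At 4 h, 0 probe sets of the 3 lists passed with limma, and 2 of 71 probe sets of other G2/M genes, 3 of 36 of G1/S genes and 3 of 47 of regulators had an unadjusted p under 0.05 in either direction, against 4.75% of all probe sets. Cdkn1a had the smallest p, with 411 and 149.5 on the NARA 4 h arrays, against 876, 607, 657 and 672 on the vehicle 4 h arrays and a difference of -1.30 (SE 0.27, adjusted p = 0.299). Nfya, a subunit of NF-Y, lay at -0.54 (SE 0.15, adjusted p = 0.662), Lin37 at -0.50 and Anapc1 at 0.43. Among G1/S genes, Gins1 lay at -0.76 (SE 0.23, adjusted p = 0.771), Cdt1 at -0.41, Ccne2 at 1.20 and Tyms at -0.30. Among other G2/M genes, Incenp, Nde1, Rangap1 and Plk4 had the smallest p, at -0.42, -0.42, -0.39 and -0.54. Between NARA 48 h and NARA 4 h, and for the difference of the NARA effects, 0 passed with limma as well, while at an unadjusted p under 0.05 in either direction there were 3 of 71, 4 of 36 and 5 of 47 in the same order between the NARA times, against 11.6% of all probe sets, and 9 of 71, 3 of 36 and 7 of 47 for the difference of effects, against 9% of all probe sets. Cdkn1c again had the smallest p of the lists between the NARA times (-1.13, SE 0.26, adjusted p = 0.0835), ahead of Rpa2 (-0.50) and Cdkn1b (-0.32), and Gins1 the smallest for the difference of effects (1.44, SE 0.31, adjusted p = 0.14), ahead of Cdkn1a (1.46) and E2f1 (0.67). The NARA 48 h signals of Cdkn1c, given above, each lay below 300.

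The 2 NARA 4 h arrays left out by the authors, replicates 1 and 4, stood apart from all others. Their medians for the 57 members were 393 and 397, at log2 differences of -1.93 and -1.98 from the vehicle 4 h mean. On both, 23 of 57 members read below 300, and for 53 and 50 of them the signal lay below all 4 vehicle 4 h arrays. The summed signal of 7 hepatocyte markers was 1006410 and 1175090 on these arrays, against 2503 to 5048 on the kept arrays, and their correlation with the kept arrays was 0.560 to 0.603. Their part in a fit of all 16 arrays is given with the alternatives.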

How the data were processed

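RNA of 16 samples of cultured rat levator ani satellite cells was hybridised to 1 array each. The deposited values are MAS5 signals, a linear intensity for each probe set, which the authors scaled to a trimmed mean of 1500 on each array per the series' design text, and the files bear this out at 1500.45 to 1500.56. The authors left out 3 arrays, and the fits used the other 13. Probe set names came from the platform annotation. The members and all gene lists were chosen with earlier results of these data known.

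Signals were used as log2(signal + 50) for probe sets with a mean of at least 300. limma 3.58.1 (R 4.3.3; lmFit, contrasts.fit and eBayes) was fitted to the 4 groups at once for 5 contrasts, two-sided, with Benjamini-Hochberg adjustment over 20904 probe sets and a threshold of 0.05. The fit was tested on simulated data. The samples carry replicate numbers 1 to 4 in each group, and the fit has no block for them. Named genes were 12 fixed central genes, per comparison the 10 members with the smallest p and any past the threshold, per role the lowest and highest difference in vehicle, members without tested probe sets or with probe sets of opposite sign, the 3 brightest and dimmest probe sets, and per other list the 4 genes with the smallest p for the comparisons with vehicle. Other members were named after their values were seen. Alternatives changed the arrays, the offset, the minimum, the scaling, the prior and the block.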

Additional observations from a re-analysis of the deposited data

Results flagged for a closer look

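In 10 of 114 groups of 4 arrays, over the 57 members and the vehicle 4 h and NARA 48 h groups, 1 array stood far from the other 3. Chance gives such a gap in about 1 in 20 groups of independent values. These probe sets vary together from array to array, so the 10 cannot be set against that rate. Replicate 3 of vehicle 4 h was far above the others for Birc5 (1605.1, against 946 to 968), Nusap1 (1392732_at, 3087.8, against 2052 to 2181) and Ttk (1397476_at, 955.76, against 504 to 555). Replicate 4 of vehicle 4 h was far below for the other Ttk probe set (1379448_at, 415.22, against 935 to 1058). Replicate 4 of NARA 48 h was low for Top2a (1372186_a_at, 619.77, against 857 to 885) and Spc25 (1718, against 2086 to 2102) and high for Kif2c (1374912_at, 1116.5, against 506 to 560.0). Aurka was low on replicate 3 of NARA 48 h (92.734, against 718 to 752), Kif11 (1390891_at) high on replicate 1 (2055.3, against 1523 to 1573) and Cdc20 (1394113_at) low on replicate 2 (163.7, against 464 to 509). The cause was not tested.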

How the results depend on the processing

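Of the counts past the threshold, only that for NARA 48 h against vehicle 48 h changed: it was 0, and became 1 with 14 arrays, 3 with a minimum signal of 1000, 1 with a trended and robust prior, and 0 to 1 when each array was left out. The count stayed at 0 in the other 4 contrasts under each alternative run, also when each array was left out. With all 16 arrays the members' median was -1.05 for NARA 4 h against vehicle 4 h, 0.74 for NARA 48 h against NARA 4 h and 1.34 for the difference of the NARA effects; the arrays put back are the 2 NARA 4 h arrays described above and vehicle 48 h replicate 1. In that fit 3 members had an unadjusted p under 0.05 between the vehicle times, against 34 with 13 arrays, and 0 against 8 between NARA 48 h and vehicle 48 h. All 4 groups share 1 estimate of the spread. The 2 NARA 4 h arrays put back therefore enter the standard errors of these 2 comparisons, though not their differences. Their part in the lower counts was not tested. Leaving out each array in turn gave medians of -0.63 to -0.42 (vehicle 48 h against vehicle 4 h), -0.32 to 0.053 (NARA 4 h against vehicle 4 h), 0.19 to 0.32 (NARA 48 h against vehicle 48 h), -0.39 to -0.0025 (NARA 48 h against NARA 4 h) and 0.20 to 0.55 (difference of effects). With the replicate block, 0 passed and the medians were -0.51, -0.15, 0.22, -0.16 and 0.36 in this order, and 25 members had an unadjusted p under 0.05 between the vehicle times. Arrays of the same number share no more than a number in the labels. Over all tested probe sets their deviations correlated at -0.036 to 0.039 in 16 pairs, 0 above 0.1, and 2 of 13 arrays correlated best with an array of their own number. Over the 57 members the correlation was -0.18 to 0.43, above 0.1 in 10 of 16 pairs. Pairs of unlike number were not measured for the members, so these values cannot tell whether arrays of the same number belong together. Of the 57 members, 53 kept their sign under every alternative between the vehicle times, 38 for NARA 48 h, 18 for NARA 4 h, 6 between the NARA times and 39 for the difference of effects. The number of arrays, 2 for NARA 4 h, limits the precision, and the dimmer probe sets had larger standard errors.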
